A study of Mus musculus with 16 samples.

Results

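Toll-like receptors and their transport protein Unc93b1 were followed across macrophage populations sorted from mouse lymph nodes. The members were 9 receptor genes, Tlr1, Tlr2, Tlr3, Tlr4, Tlr6, Tlr7, Tlr8, Tlr9 and Tlr13, and Unc93b1. They were found by matching the Ensembl gene identifiers of the count table to these symbols, which gave 10 of 55421 gene rows. All 10 were among the 21085 genes that passed the filter on low counts. Tlr1, Tlr2, Tlr4 and Tlr6 were treated as surface receptors, and Tlr3, Tlr7, Tlr8, Tlr9 and Tlr13 as endosomal receptors.

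The study compared the RNA of subcapsular sinus macrophages (SSMs) and medullary sinus macrophages (MSMs) between lymph nodes that drain a tumor (tdLNs) and nodes that do not (ndLNs). MOC2 squamous carcinoma cells were implanted in the flank of male C57B/6 mice, and nodes were taken 2 weeks later. Every mouse carried a tumor, and the ndLNs came from the same tumor-bearing mice, so no tumor-free control enters any comparison. Live CD45+ CD3- B220- Ly6G- CD11b+ CD169+ cells were sorted into SSMs (CD11c-, low side scatter) and MSMs (CD11c+, high side scatter). Each pool joined the nodes of 2 mice, which were 2 tdLNs and 6 ndLNs. The tumor was placed near the inguinal node, and the ndLNs were contralateral inguinal, axillary and brachial nodes. Number and site of nodes therefore differed along with drainage, and their effects cannot be told apart in comparisons of tdLNs with ndLNs. Each of the 4 groups (SSMs of ndLNs, SSMs of tdLNs, MSMs of ndLNs and MSMs of tdLNs) held 2 libraries, numbered here as pool 1 and pool 2.

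Toll-like receptors are innate immune receptors that bind molecules shared by many microbes. The surface receptors bind lipids and lipoproteins of the microbial coat, whereas the endosomal receptors bind nucleic acids after uptake into the cell. Unc93b1 is a membrane protein that escorts the endosomal receptors out of the endoplasmic reticulum, and most of the receptors signal through the adaptor Myd88 to NF-kB. Macrophages of the nodal sinuses meet lymph-borne material first, and dendritic cells, monocytes and macrophages are known to carry different sets of these receptors.

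The 8 libraries held between 42972328 and 48130352 counts. The labels of the populations were checked against marker genes before the members were compared, on CPM, counts divided by the TMM-scaled library size and set to a common total, a scale for comparing the same gene between libraries. Siglec1, which encodes the CD169 used in the sort, was at 15.1 and 8.47 CPM in SSMs of ndLNs and at 70 and 59.2 CPM in SSMs of tdLNs. It was at only 0.795 and 1.63 CPM in MSMs of ndLNs and at 5.96 and 5.64 CPM in MSMs of tdLNs, and Itgam, which encodes CD11b, was between 9.64 and 20.4 CPM in the 4 MSM libraries. The MSM libraries carried the 8 listed markers of type 1 conventional dendritic cells (cDC1) at a summed level of 4473 to 5965 CPM. In SSMs this sum was 333 to 680 CPM. The 10 macrophage markers summed to 4732 to 5428 CPM in MSMs. In SSMs they summed to 6036 to 9271 CPM in ndLNs and to 16371 to 23642 CPM in tdLNs. Lyz2 alone was at 3998 to 4636 CPM in MSMs and at 5044 to 19309 CPM in SSMs. The 8 markers of type 2 conventional and migratory dendritic cells summed to 3733 to 5389 CPM in MSMs and to 2010 to 2756 CPM in SSMs. Cd3e, a T cell gene, was at 151 and 143 CPM in SSMs of ndLNs despite the CD3- gate. The names SSM and MSM are therefore used below as names of sort gates.

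Per unit of length, taken as the union of a gene's exons, Unc93b1 and Tlr2 were the most abundant of the 10 genes in every group. By this measure the populations differed mainly in which receptor came after them. Levels of different genes were compared as TPM, which divides counts by gene length and scales every library to the same sum. The order depends on the length chosen. The union of exons is 5207 bases for Tlr3 and 3014 for Tlr2, while the mean length of coding transcripts is 2356 and 3014 bases. By the mean length of coding transcripts, Tlr3 stood above Tlr2 in both libraries of MSMs of ndLNs. The values below use the union of exons. In SSMs of ndLNs, Unc93b1 was at 304 to 386 TPM, Tlr2 at 224 to 254 TPM and Tlr13 at 28.9 to 35.7 TPM. The next pair, Tlr7 (17.7 to 28.6 TPM) and Tlr1 (17.1 to 20.1 TPM), overlapped between the libraries. Tlr8, Tlr6, Tlr4, Tlr3 and Tlr9 followed in that order without overlap, down to 0.348 to 1.22 TPM for Tlr9. In MSMs of ndLNs the third place was taken by Tlr3, at 81.9 to 87.4 TPM, ahead of Tlr13 at 21.8 to 23.6 TPM. Tlr7, which came next after Tlr13 in SSMs of ndLNs, was at 2.75 to 5.87 TPM in MSMs of ndLNs and overlapped Tlr4 there. In SSMs of tdLNs Tlr1 (63 to 65.4 TPM) and Tlr13 (55.4 to 70.9 TPM) overlapped behind Tlr2, which stood at 465 to 699 TPM.

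Among the 9 receptors, the endosomal ones made up a larger share of transcripts in MSMs than in SSMs. Within this list the larger share was carried by Tlr3. The endosomal share of the summed TPM of the 9 receptors was 21.9% and 18.1% in SSMs of ndLNs. In SSMs of tdLNs it was 16.4% and 17.4%. It was 45.7% and 40.3% in MSMs of ndLNs and 34.4% and 46.1% in MSMs of tdLNs. The SSM and MSM libraries did not overlap. Tlr3 alone was 64.2% to 74.4% of the endosomal TPM in MSMs and 2.85% to 3.85% in SSMs. With Tlr3 left out of both sums, the endosomal share was between 15.2% and 21.3% in all 8 libraries, and the populations overlapped. Tlr2 was 83.7% to 88.5% of the surface TPM in every library. With the mean length of coding transcripts in place of the union of exons, the endosomal share was 20.8% to 27.4% in SSMs and 47.8% to 61% in MSMs. The shares hold for the 9 receptors and leave out Tlr5, Tlr11 and Tlr12. Tlr11 and Tlr12 were also higher in MSMs than in SSMs, as given below. All these shares are descriptions and were not tested.

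**Figure D1:**
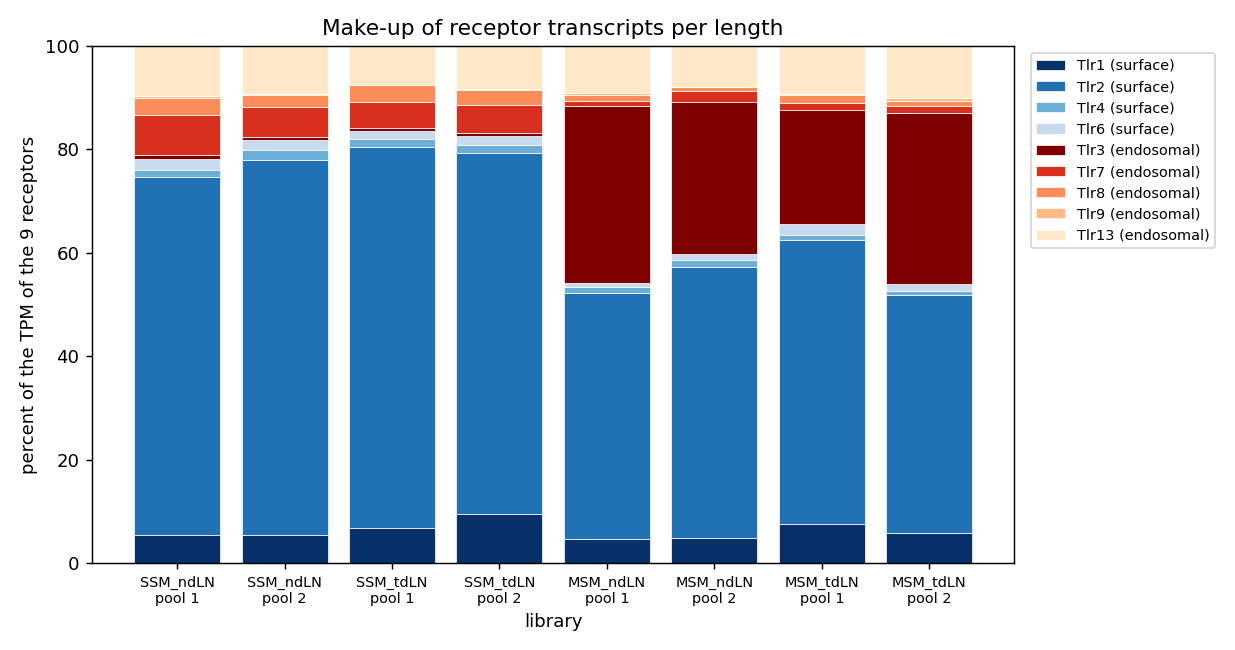
Stacked bars give each receptor's percent of the summed TPM of the 9 receptors in each of the 8 libraries, surface receptors in blue and endosomal receptors in red to cream. Gene length is the union of exons. Tlr2 is the largest block in every bar, and the dark red block of Tlr3 is large only in the 4 MSM bars, where it is 64.2% to 74.4% of the endosomal part.

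The first question was how the receptors differ between SSMs and MSMs of the same kind of node. In ndLNs, SSMs had less Tlr3 and Unc93b1 and more Tlr7 and Tlr8 than MSMs, and in tdLNs SSMs had more of 6 of the 9 receptors and less Tlr3. A gene was called different at an adjusted p of edgeR's quasi-likelihood test under 0.01 and a mean normalized count over 100, counts being scaled to 1 sequencing lane, and calls below are those of edgeR unless DESeq2 is named. By this rule 4 of the 10 members were called in ndLNs, beside 12.1% of all genes tested and 25.5% of the genes with a mean count over 100. In tdLNs 7 of the 10 were called, beside 8.69% of all genes tested and 18.3% of those over the count cut-off. The DESeq2 Wald test called 4 in ndLNs and 8 in tdLNs, Tlr6 being added there. Tlr9 had a mean count of 27.4 and could not be called under this rule. The median log2 difference of the 10 members between SSMs and MSMs was 0.26 in ndLNs and 1.54 in tdLNs, beside medians of 0.09 and 0.02 over all genes tested. The number of members called fell from 4 to 2 in ndLNs without either SSM library of ndLNs, either SSM library of tdLNs or pool 1 of MSMs of ndLNs, with Tlr3 and Unc93b1 called whichever library was left out. In tdLNs it fell from 7 to 2 without SSMs of tdLNs, pool 1, or MSMs of tdLNs, pool 2, and to 4 without the other library of either group, with Tlr3 and Tlr8 called whichever library was left out.

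Tlr3, the receptor for viral RNA duplexes, lies on chromosome 8 (GRCm38, 45395665 to 45411080, minus strand). It was at 4.45 and 2.22 CPM in SSMs of ndLNs, at 11.1 and 6.97 CPM in SSMs of tdLNs, at 172 and 152 CPM in MSMs of ndLNs and at 133 and 155 CPM in MSMs of tdLNs. Every MSM library was far above every SSM library. SSMs differed from MSMs by -5.60 ± 0.31 (log2, SE, n = 2 libraries per group) in ndLNs, a 48.6-fold lower level with an adjusted p of 3.26e-05. In tdLNs the difference was -4.02 ± 0.28, or 16.2-fold, with an adjusted p of 0.000133. A gene on the opposite strand, Gm45542, overlaps Tlr3, and it received 3 counts over all samples.

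Between SSMs and MSMs, the level of Tlr3 moved with markers of cDC1. Xcr1, a chemokine receptor that defines cDC1, was at 24.9 and 33.6 CPM in SSMs of ndLNs, at 14.2 and 16.8 CPM in SSMs of tdLNs, at 752 and 701 CPM in MSMs of ndLNs and at 630 and 752 CPM in MSMs of tdLNs. Of the 8 cDC1 markers, 7 were called lower in SSMs of ndLNs and 8 in SSMs of tdLNs, with median log2 differences of -4.91 and -4.77. Between nodes in SSMs they did not move together. There the log2 difference of tdLNs from ndLNs was 1.43 for Tlr3 (edgeR adjusted p = 0.0401) and -0.91 for Xcr1 (adjusted p = 0.017). The median of the 8 cDC1 markers was -0.57, and 1 (Naaa) was called higher. The ratio of Tlr3 to Xcr1, a measure chosen after the values were seen, was between 20.6% and 22.8% in the 4 MSM libraries. It was 17.9% and 6.61% in SSMs of ndLNs and 78.4% and 41.4% in SSMs of tdLNs. The part of these cells in the Tlr3 level was not tested, and in bulk RNA fewer cells of a type and less RNA per cell cannot be told apart.

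Tlr7 and Tlr8, neighboring genes on the X chromosome (167304929 to 167330558 and 167242696 to 167264329, both on the minus strand), had the opposite pattern. Tlr7, a receptor for RNA strands without a partner, was at 34 and 19.3 CPM in SSMs of ndLNs, at 69.2 and 52.6 CPM in SSMs of tdLNs, at 4.23 and 8.56 CPM in MSMs of ndLNs and at 5.82 and 4.87 CPM in MSMs of tdLNs. All 4 SSM libraries were above all 4 MSM libraries. SSMs were higher by 1.99 ± 0.38 (log2, SE) in ndLNs, with an adjusted p of 0.0077, and by 3.51 ± 0.38, or 11.4-fold, in tdLNs, with an adjusted p of 0.000811.

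Tlr8 was at 12.6 and 7.18 CPM in SSMs of ndLNs, at 38.1 and 23 CPM in SSMs of tdLNs, at 3.67 and 2.59 CPM in MSMs of ndLNs and at 6.28 and 3.1 CPM in MSMs of tdLNs. Again no SSM library fell among the MSM libraries. The log2 difference between SSMs and MSMs was 1.64 ± 0.26 in ndLNs, with an adjusted p of 0.00347, and 2.72 ± 0.23 in tdLNs, with an adjusted p of 0.000276. Without pool as a block in the model the call for Tlr8 in ndLNs was lost, at an adjusted p of 0.0339. The call for Tlr7 in ndLNs was lost without 7 of the 8 libraries and that for Tlr8 without 6 of 8. The log2 difference of Tlr7 then ran from 1.33 (without MSMs of ndLNs, pool 1) to 2.87 (without MSMs of ndLNs, pool 2), and that of Tlr8 from 1.47 to 1.79.

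The remaining endosomal receptors differed less. Tlr13, which in mice binds bacterial ribosomal RNA (chromosome X, 106143204 to 106160493, plus strand), was at 44.7 and 33.2 CPM in SSMs of ndLNs and at 38.2 and 33.5 CPM in MSMs of ndLNs, and these libraries overlapped. It was at 108 and 83.7 CPM in SSMs of tdLNs and at 46.5 and 38.5 CPM in MSMs of tdLNs, where SSMs were higher by 1.17 ± 0.15 with an adjusted p of 0.00173. Tlr9, the receptor for bacterial DNA (chromosome 9, 106222598 to 106226883, plus strand), had the fewest counts of the members, between 5 and 94 per library. Its values were 1.23 and 0.323 CPM in SSMs of ndLNs, 1.88 and 2.15 CPM in SSMs of tdLNs, 1.31 and 0.111 CPM in MSMs of ndLNs and 0.751 and 1.89 CPM in MSMs of tdLNs. A library's floor of 3 counts lay between 0.0623 and 0.0698 CPM. The libraries of a group differed widely, with 51 and 5 counts in MSMs of ndLNs and 67 and 16 counts in SSMs of ndLNs. The SE of the log2 difference of Tlr9 was 1.06 in ndLNs and 0.76 in tdLNs, and no difference of Tlr9 was detected.

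For the surface receptors the log2 differences between SSMs and MSMs of ndLNs ran from 0.14 (Tlr1) to 1.00 (Tlr6) and were not called, and 3 of the 4 were called higher in SSMs than in MSMs of tdLNs. In ndLNs edgeR called 0 of the 4, with 1 (Tlr6) at an unadjusted p under 0.05, and a DESeq2 Wald test also called 0. Tlr2 (chromosome 3, 83836272 to 83841767, minus strand) binds lipoproteins as a pair with Tlr1 or Tlr6. It was at 223 and 180 CPM in SSMs of ndLNs, at 748 and 492 CPM in SSMs of tdLNs, at 139 and 156 CPM in MSMs of ndLNs and at 191 and 124 CPM in MSMs of tdLNs. SSMs were higher by 0.42 ± 0.20 in ndLNs (log2, SE, adjusted p = 0.181, 95% interval -0.05 to 0.89) and by 1.98 ± 0.21 in tdLNs (adjusted p = 0.000663).

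Tlr1 (chromosome 5, 64924679 to 64933563, minus strand) was at 19.6 and 15.3 CPM in SSMs of ndLNs, at 77.6 and 74 CPM in SSMs of tdLNs, at 15.1 and 16.2 CPM in MSMs of ndLNs and at 29.5 and 17.4 CPM in MSMs of tdLNs. The SSM and MSM libraries overlapped in ndLNs and stood apart in tdLNs, where the log2 difference was 1.72 ± 0.23 with an adjusted p of 0.00193. Its neighbor and paralog Tlr6 (chromosome 5, 64952031 to 64960097, minus strand) was lower, at 7.96 and 6.51 CPM in SSMs of ndLNs, at 20 and 14.9 CPM in SSMs of tdLNs, at 3.05 and 4.03 CPM in MSMs of ndLNs and at 9.33 and 4.58 CPM in MSMs of tdLNs. Every SSM library was above the MSM libraries of the same kind of node, and neither difference was called by edgeR, with log2 differences of 1.00 ± 0.36 (adjusted p = 0.0899) in ndLNs and 1.35 ± 0.30 (adjusted p = 0.0208) in tdLNs. DESeq2 called the difference in tdLNs, at 1.38 with an adjusted p of 0.00502. Of the 50-base windows in the annotated transcripts, 13.6% of those of Tlr1 also occur in Tlr6 and 12.3% of those of Tlr6 also occur in Tlr1, so some reads of this pair could not be assigned to either gene by sequence.

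Tlr4, the receptor for lipopolysaccharide (chromosome 4, 66827584 to 66930284, plus strand), was at 8.79 and 8.65 CPM in SSMs of ndLNs, at 28.5 and 19 CPM in SSMs of tdLNs, at 6.61 and 7.53 CPM in MSMs of ndLNs and at 5.28 and 3.46 CPM in MSMs of tdLNs. SSMs were highest in tdLNs, the kind of node in which MSMs were lowest. The difference between SSMs and MSMs was 0.29 ± 0.29 (log2, SE, adjusted p = 0.517) in ndLNs and 2.44 ± 0.29, or 5.44-fold, in tdLNs (adjusted p = 0.00111).

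Unc93b1 (chromosome 19, 3935186 to 3949340, plus strand) differed between SSMs and MSMs in ndLNs, with no difference detected in tdLNs. It was at 340 and 246 CPM in SSMs of ndLNs, at 1019 and 882 CPM in SSMs of tdLNs, at 1366 and 1090 CPM in MSMs of ndLNs and at 934 and 963 CPM in MSMs of tdLNs. SSMs of ndLNs stood apart below the other 6 libraries. The log2 difference between SSMs and MSMs was -2.07 ± 0.14 in ndLNs, a 4.2-fold lower level with an adjusted p of 7.7e-05. In tdLNs it was -0.01 ± 0.14, with a 95% interval of the fit from -0.33 to 0.32.

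**Figure D2:**
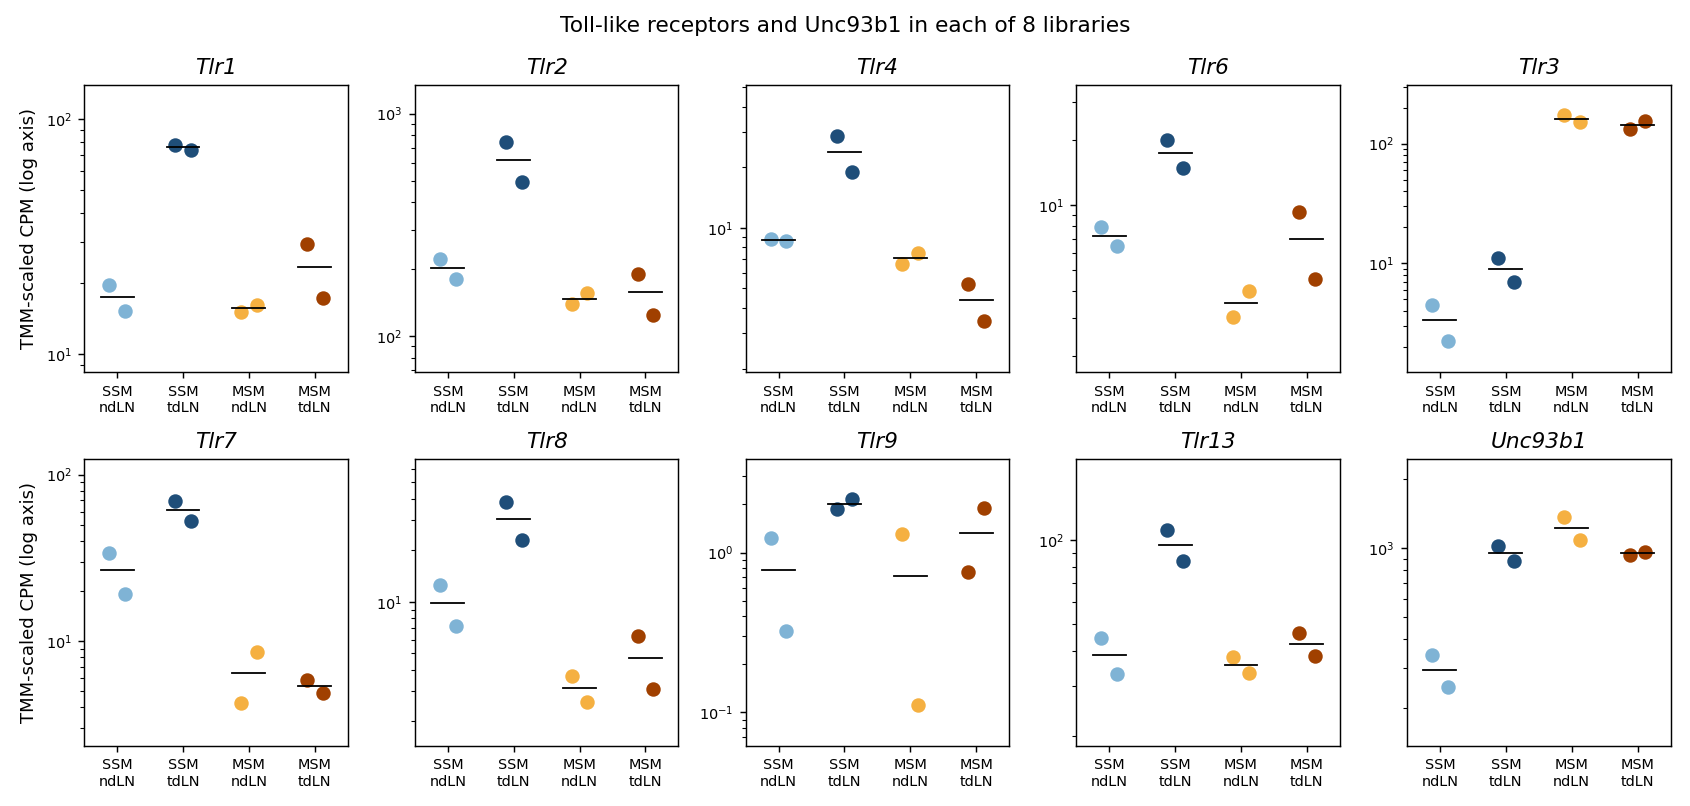
Points give the CPM of each gene in each library on log axes whose ranges differ between panels, with 2 libraries per group (pool 1 at the left) and a black line at their mean. Tlr3 is above 130 CPM in all MSM libraries and below 12 CPM in all SSM libraries, whereas SSMs of tdLNs are the highest group for Tlr1, Tlr2, Tlr4, Tlr6, Tlr7, Tlr8 and Tlr13.

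The second question was whether the receptors differ between tdLNs and ndLNs within a population. In SSMs all 10 members were higher in tdLNs than in ndLNs in both pools, and the 2 kinds of node did not overlap for any of them. Of all genes tested, 29.7% were higher in tdLNs in both pools and 25.6% were higher without overlap, and among the genes with a mean count over 100 these shares were 41.1% and 37.4%. By the call rule 5 members rose, Tlr1, Tlr2, Tlr8, Tlr13 and Unc93b1, and none fell. The background was 3.03% of all genes tested called in either direction, 1.98% called higher in tdLNs, and 6.39% called among the genes with a mean count over 100. DESeq2 called 7, the same 5 with Tlr3 (adjusted p = 6.01e-05) and Tlr4 (adjusted p = 0.000787). The median log2 difference was 1.43 for the 10 members and -0.04 for all genes tested. Each of the 8 libraries serves in 2 of the 4 simple comparisons, so the comparisons share samples.

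Tlr1 rose by 2.13 ± 0.23 (log2, SE, n = 2), or 4.38-fold, in SSMs of tdLNs, with an adjusted p of 0.0026. Unc93b1 rose by 1.71 ± 0.14, or 3.27-fold, with an adjusted p of 0.00158. Tlr8 rose by 1.63 ± 0.20, with an adjusted p of 0.00411, and this call was lost without the block for pool, at an adjusted p of 0.0259. Tlr2 rose by 1.60 ± 0.20 (adjusted p = 0.0043), and Tlr13 rose by 1.30 ± 0.15 (adjusted p = 0.00319). The other 5 had log2 differences of the same order with adjusted p values over the threshold in edgeR. They were 1.43 ± 0.25 for Tlr4 (adjusted p = 0.015), 1.27 ± 0.29 for Tlr6 (adjusted p = 0.0381), 1.43 ± 0.34 for Tlr3 (adjusted p = 0.0401), 1.20 ± 0.32 for Tlr7 (adjusted p = 0.0588) and 1.35 ± 0.82 for Tlr9 (adjusted p = 0.375).

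These calls rested on all libraries. Without 1 of the 4 SSM libraries the number of members called fell from 5 to 1 (without SSMs of ndLNs, pool 1) or to 0 (without any of the other 3), and to 2 without either MSM library of tdLNs. The log2 differences of the 5 genes stayed between 1.23 and 2.25 throughout. When the fit held the 4 SSM libraries alone, 0 members and 0 of all genes tested were called.

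In MSMs edgeR called 0 of the 10 members between tdLNs and ndLNs, with 2 (Tlr6 and Unc93b1) at an unadjusted p under 0.05, and the DESeq2 Wald test also called 0. The background was 0.0237% of all genes tested. The log2 differences were 0.91 ± 0.37 for Tlr6 (adjusted p = 0.39), 0.55 ± 0.24 for Tlr1 (adjusted p = 0.433), 0.55 ± 0.30 for Tlr8 (adjusted p = 0.514) and 0.24 ± 0.15 for Tlr13 (adjusted p = 0.587). They were -0.72 ± 0.32 for Tlr4 (adjusted p = 0.436), -0.36 ± 0.14 for Unc93b1 (adjusted p = 0.368) and -0.31 ± 0.44 for Tlr7 (adjusted p = 0.847). Both pools were higher in tdLNs for 4 members (Tlr1, Tlr6, Tlr8 and Tlr13), both were lower for 2 (Tlr4 and Unc93b1), and the pools went in opposite directions for the other 4. Of all genes tested, 27% were higher in both pools and 24.1% lower.

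Whether the change between nodes differed between SSMs and MSMs was tested by the interaction of subset and node. EdgeR called 0 of the 10 members, beside 0.0379% of all genes tested, with 8 members at an unadjusted p under 0.05, and the DESeq2 Wald test called 6. The nearest to the threshold was Unc93b1, with a difference of 2.06 ± 0.20 (log2, SE) and an adjusted p of 0.0138. The estimates were 2.16 ± 0.41 for Tlr4 (adjusted p = 0.0682), 1.56 ± 0.28 for Tlr2 (adjusted p = 0.0593), 1.58 ± 0.33 for Tlr1 (adjusted p = 0.0872) and 1.06 ± 0.21 for Tlr13 (adjusted p = 0.0799). The 10 estimates were all above 0, from 0.34 for Tlr9 to 2.16 for Tlr4. A larger change in SSMs than in MSMs was therefore not established for any member by the main test.

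**Figure D3:**
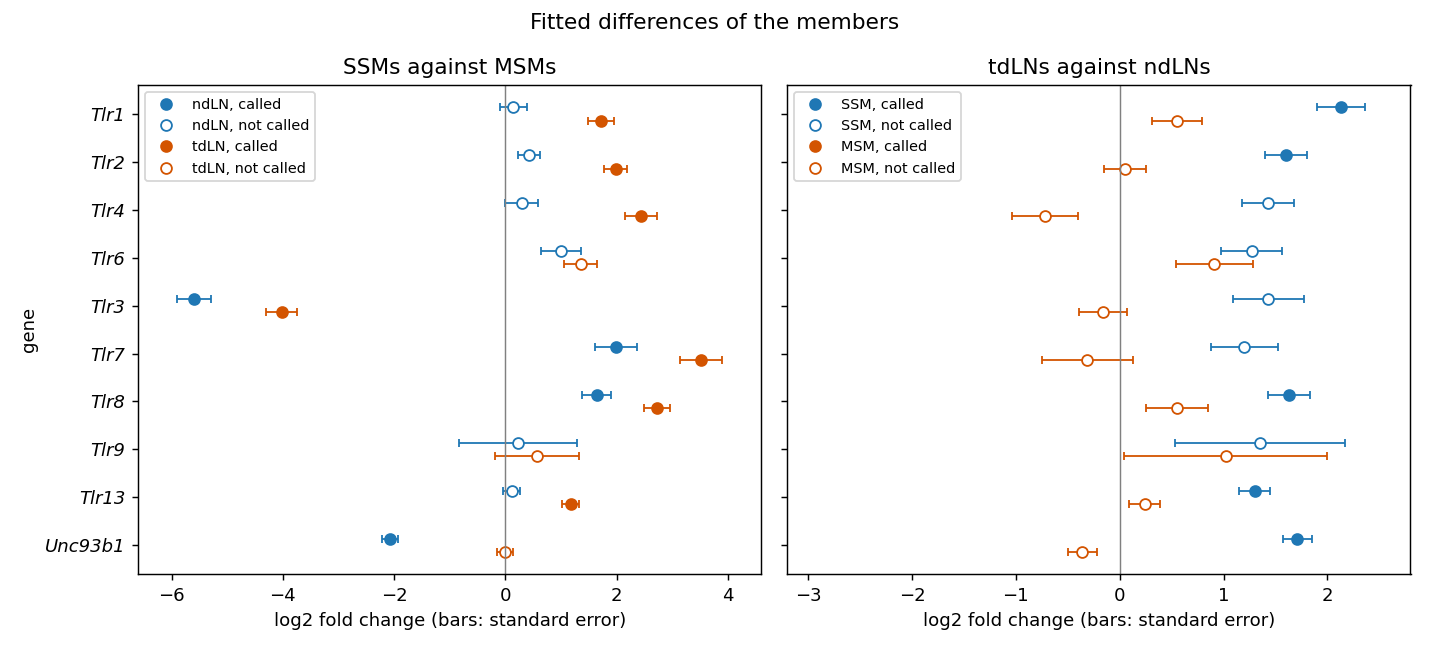
Points give the fitted log2 fold change of each gene with its standard error, SSMs against MSMs at the left and tdLNs against ndLNs at the right, filled where the gene was called and open where it was not. At the right every blue point for SSMs lies between 1.20 and 2.13, while the orange points for MSMs lie on both sides of 0.

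Markers of macrophages and of other cells also differed between nodes in SSMs, in both directions. Of 10 macrophage markers, 9 were called higher in SSMs of tdLNs, with a median log2 difference of 2.25, and their summed level was 6036 to 9271 CPM in ndLNs and 16371 to 23642 CPM in tdLNs. Of 8 monocyte markers 1 (Ccr2) was called higher, with a median of 1.25 and sums of 1539 to 2810 CPM against 4843 to 5064 CPM. Of 12 markers of innate-like lymphoid cells 6 were called lower, with a median of -1.51, and their sum was 1699 to 2081 CPM in ndLNs and 618 to 655 CPM in tdLNs. Of 11 T cell markers 3 were called lower, with a median of -0.89, and their sum was 2308 to 2535 CPM in ndLNs and 1018 to 1170 CPM in tdLNs. Of 12 markers of mast cells and basophils 2 (Cpa3 and Kit) were called lower and 1 (Mcpt8) higher, with a median of -2.52 and sums of 2225 to 3299 CPM in ndLNs and 416 to 868 CPM in tdLNs. In the 4 SSM libraries, none of the markers of these 5 lists was at or under 3 counts in both libraries of a group. The 9 macrophage calls fell to between 0 and 4 without any 1 of the 4 SSM libraries or the 2 MSM libraries of tdLNs, and to 7 without either MSM library of ndLNs. The 6 lymphoid calls fell to between 0 and 4, and the 3 T cell calls to 0 or 1, without any 1 of the 8 libraries.

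The other lists of markers were examined in the same way. For NK and cytotoxic cells, edgeR called 0 of 10 markers between nodes in SSMs, with 2 at an unadjusted p under 0.05 and 0 by DESeq2, and the sums were 2862 to 3566 CPM and 2183 to 3165 CPM. Of 10 neutrophil markers 1 (Csf3r) was called higher, with a median log2 difference of 1.69 and sums of 93.7 to 318 CPM and 354 to 817 CPM. Of 8 markers of type 2 conventional and migratory dendritic cells 3 were called higher, with a median of 0.97 and sums of 2010 to 2700 CPM and 2357 to 2756 CPM. Of the 8 cDC1 markers 1 (Naaa) was called higher in SSMs of tdLNs, and the median of the list was -0.57. The sums were 333 to 347 CPM and 648 to 680 CPM, with Naaa itself at 111 and 65.8 CPM in ndLNs and at 495 and 423 CPM in tdLNs, while Xcr1 and Itgae had log2 differences of -0.91 (adjusted p = 0.017) and -0.64 (adjusted p = 0.0213). For plasmacytoid dendritic cells and B cells edgeR called 0 of 10 markers each, with 3 each at an unadjusted p under 0.05, and DESeq2 called 1 and 0.

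Csf1r, the receptor for the growth factor of macrophages and monocytes, was set beside the members as a scale for the myeloid part of each library. This measure was chosen after the values were seen. Csf1r was at 694 and 559 CPM in SSMs of ndLNs and at 1887 and 1408 CPM in SSMs of tdLNs, a log2 difference of 1.39 ± 0.22 with an adjusted p of 0.00984. Tlr2 was 32.1% and 32.2% of Csf1r in SSMs of ndLNs and 39.6% and 34.9% in SSMs of tdLNs. Tlr13 was 6.45% and 5.95% of Csf1r against 5.74% and 5.94%, and Tlr6 was 1.15% and 1.16% against 1.06% in each library. The ratios of Tlr2 were thus above those of ndLNs in both libraries of tdLNs, and those of Tlr13 and Tlr6 slightly below. The ratios of Tlr3, Tlr4, Tlr7, Tlr8 and Tlr9 overlapped between nodes, that of Tlr8 being 1.82% and 1.28% against 2.02% and 1.64%.

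Tlr1 and Unc93b1 also stood higher against this scale in both libraries of SSMs of tdLNs. Tlr1 was 2.82% and 2.74% of Csf1r in ndLNs and 4.11% and 5.25% in tdLNs. Unc93b1 was 49.1% and 44% of Csf1r in ndLNs and 54% and 62.6% in tdLNs. In MSMs Unc93b1 was at 231% to 654% and Tlr2 at 47.1% to 77.2% of Csf1r, above all SSM ratios. Tlr1 (7.23% to 8.96%), Tlr3 (32.7% to 82.2%), Tlr6 (1.46% to 2.36%) and Tlr13 (11.5% to 19.8%) also stood above theirs. The MSM ratios of Tlr7 (1.44% to 4.23%) and Tlr8 (1.28% to 1.76%) overlapped those of SSMs, as did those of Tlr4 and Tlr9. Csf1r itself was lower in MSMs, at 194 to 405 CPM, so a ratio compared between SSMs and MSMs depends on Csf1r too. The part of a changed cell make-up in the rise of the members was not tested.

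**Figure D4:**
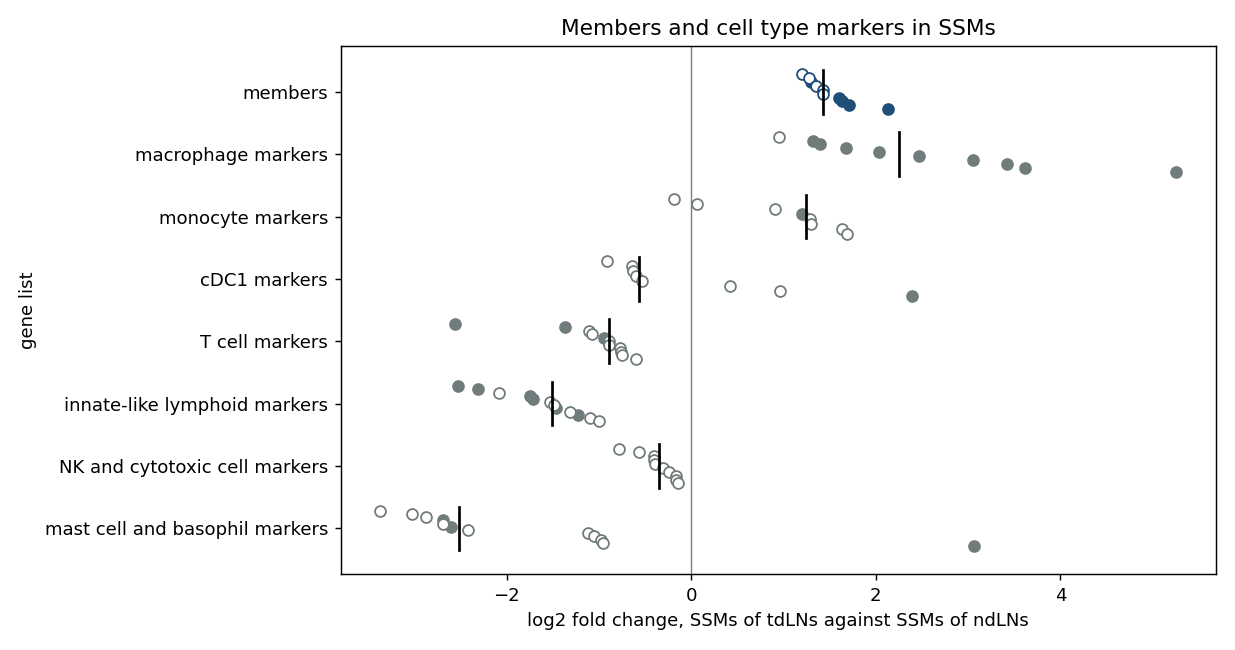
Points give the log2 fold change of each gene between SSMs of tdLNs and SSMs of ndLNs for the 10 members (blue) and for 7 lists of cell type markers (grey), filled where called, with a black line at the median. The members (median 1.43) lie between the monocyte markers (median 1.25) and the macrophage markers (median 2.25), and the innate-like lymphoid markers (median -1.51) lie on the other side of 0.

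The promoters of the 4 receptors called higher in SSMs of tdLNs are shown because these genes moved together. The sequences are RefSeq windows on GRCm38.p6 from 250 bases before to 50 bases after the annotated start, available here for Tlr1, Tlr2, Tlr3, Tlr6, Tlr8, Tlr9 and Tlr13. Printed is the longest stretch before the start that lies in no annotated exon of the gene. Capitals mark matches on either strand to PU.1 (GAGGAAG), to the core of the interferon-stimulated response element (GAAANNGAA) or to the NF-kB consensus of 10 letters. A composite ETS and IRF element (GGAANNGAA) was also searched, whose letters overlap those of the response element.
Tlr1, chr5:64933564-64933808, minus strand: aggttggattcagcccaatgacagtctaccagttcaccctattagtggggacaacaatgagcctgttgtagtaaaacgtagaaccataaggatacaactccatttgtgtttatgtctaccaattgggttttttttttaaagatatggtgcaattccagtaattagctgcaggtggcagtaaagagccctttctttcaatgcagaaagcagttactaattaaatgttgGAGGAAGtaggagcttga
Tlr2, chr3:83841768-83841858, minus strand: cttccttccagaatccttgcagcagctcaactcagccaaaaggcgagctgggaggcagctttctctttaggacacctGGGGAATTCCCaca
Tlr8, chrX:167264330-167264579, minus strand: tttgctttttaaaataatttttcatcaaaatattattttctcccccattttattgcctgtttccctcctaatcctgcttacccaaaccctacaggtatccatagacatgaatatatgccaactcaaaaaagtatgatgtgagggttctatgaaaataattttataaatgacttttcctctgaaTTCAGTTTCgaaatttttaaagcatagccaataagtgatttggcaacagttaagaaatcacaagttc
Tlr13, chrX:106143025-106143203, plus strand: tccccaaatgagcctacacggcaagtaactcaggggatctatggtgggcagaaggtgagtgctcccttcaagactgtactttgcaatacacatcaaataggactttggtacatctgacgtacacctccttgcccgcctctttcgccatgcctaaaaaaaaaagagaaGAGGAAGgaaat

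The 4 promoters did not share a motif. Tlr1 and Tlr13 each held a PU.1 match, which 13.6% of all 32851 RefSeq windows hold. Another window of Tlr1 held no match and is not printed. Tlr2 held NF-kB matches, found in 4.51% of all windows, of which the stretch above shows overlapping ones and the full window of 300 bases another. Tlr8 held a match to the response element core, found in 8.56% of all windows. Receptors not called between nodes in SSMs held the same motifs. The window of Tlr3, most of which lies over annotated exons and is not printed, held an NF-kB match. Tlr9 held PU.1 matches, and a window of Tlr6 held matches to the response element core. None of the windows held the composite element, found in 8.24% of all windows. A match is a stretch of letters and says nothing of binding.

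Other genes of the pathway were taken from lists of co-receptors, processing enzymes, signaling proteins and targets, 69 genes in all. The part of cell make-up in the differences of these genes was not tested either. In SSMs 10 of the 69 rose and 2 fell between ndLNs and tdLNs. In MSMs edgeR called 0 of the 69, with 18 at an unadjusted p under 0.05, and DESeq2 called 6. SSMs differed from MSMs in 22 of the 69 in ndLNs (10 higher, 12 lower) and in 20 of the 69 in tdLNs (14 higher, 6 lower). Between SSMs and MSMs, 12.1% of all genes tested were called in ndLNs and 8.69% in tdLNs. Among the genes with a mean count over 100 these shares were 25.5% and 18.3%. Between nodes in SSMs, 3.03% of all genes tested and 6.39% of those over the count cut-off were called. Between nodes in MSMs the share was 0.0237% of all genes tested. The calls between nodes in SSMs were fewer without some libraries, at 2 without SSMs of ndLNs, pool 2, at 0 without either SSM library of tdLNs and at 3 without either MSM library of tdLNs, and 0 when only the groups compared were fitted, whereas DESeq2 called 28. Between SSMs and MSMs, the 22 calls in ndLNs fell to 9 and 13 without pool 1 or pool 2 of MSMs of ndLNs. The 20 calls in tdLNs fell to 7 and 8 without pool 1 or pool 2 of SSMs of tdLNs and to 10 and 4 without pool 1 or pool 2 of MSMs of tdLNs.

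Among the other mouse Toll-like receptors, Tlr11 and Tlr12, which bind profilin of protozoa, followed Tlr3. Tlr11 was at 104 and 76.1 CPM in MSMs of ndLNs and at 1.31 and 1.6 CPM in SSMs of ndLNs, a log2 difference of -5.97 ± 0.38 between SSMs and MSMs (adjusted p = 5.59e-05), and at -4.53 ± 0.33 in tdLNs (adjusted p = 0.000167). Tlr12 was lower in SSMs by -3.76 ± 0.29 on the log2 scale in ndLNs (adjusted p = 0.000111) and by -2.02 ± 0.27 in tdLNs (adjusted p = 0.00203). Tlr5, the receptor for flagellin, was at 4.58 and 6.23 CPM in SSMs of ndLNs and at 17.6 and 12.7 CPM in SSMs of tdLNs, and was not called by edgeR in any comparison. SSMs and MSMs of tdLNs differed in Tlr5 by 1.83 (log2, adjusted p = 0.0192), and DESeq2 called 3 of the 3 genes there and 1 of the 3 between nodes in SSMs.

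Of 11 co-receptors, chaperones and trafficking factors, 3 rose and 1 fell in SSMs of tdLNs. Cd14, which hands lipopolysaccharide to Tlr4, was at 604 and 436 CPM in SSMs of ndLNs and at 1744 and 980 CPM in SSMs of tdLNs, a rise of 1.36 ± 0.17 (adjusted p = 0.00407). Ly86, partner of Cd180, rose by 2.00 ± 0.31 (adjusted p = 0.00975), and Cnpy3, a chaperone that folds the receptors with Hsp90b1, rose by 0.98 ± 0.14 (adjusted p = 0.00615). Cd36, a scavenger receptor that works with Tlr2 and Tlr6, went the other way. It was at 23.7 and 24.5 CPM in SSMs of ndLNs and at 10.1 and 10.2 CPM in SSMs of tdLNs, a log2 change of -1.25 ± 0.18 (adjusted p = 0.00682). In MSMs it was at 545 and 468 CPM in ndLNs and at 171 and 129 CPM in tdLNs (adjusted p = 0.012). SSMs were lower than MSMs for Cd36 (-4.39 ± 0.17), Cd180 (-2.95 ± 0.55) and Cnpy3 (-1.13 ± 0.14) in ndLNs, with adjusted p values of 1.47e-05, 0.00674 and 0.000888. In tdLNs Cd14 was called higher and Cd36 lower in SSMs than in MSMs.

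Of 5 proteases that cut endosomal receptors, 3 rose in SSMs of tdLNs. They were Ctss (1.89 ± 0.16, adjusted p = 0.00158), Lgmn (1.72 ± 0.19, adjusted p = 0.00275) and Ctsb (1.26 ± 0.10, adjusted p = 0.0012). In tdLNs 4 of the 5, these and Ctsl, were higher in SSMs than in MSMs. In ndLNs edgeR called 0 of the 5 between SSMs and MSMs, with 4 at an unadjusted p under 0.05, and DESeq2 called 0.

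Of 6 TIR adaptors, edgeR called Myd88 between nodes in SSMs, and DESeq2 called 2 of the 6. It was at 117 and 84.7 CPM in SSMs of ndLNs and at 261 and 253 CPM in SSMs of tdLNs, a rise of 1.36 ± 0.15 (adjusted p = 0.00294). In MSMs it was at 112 and 109 CPM in ndLNs and at 221 and 212 CPM in tdLNs, a log2 difference of 0.97 ± 0.15 with an adjusted p of 0.0572. Pik3ap1, which links the receptors to phosphoinositide kinase, was called lower in SSMs than in MSMs of ndLNs (-0.93 ± 0.14, adjusted p = 0.0028). Of 15 kinases and ubiquitin ligases, 1 rose in SSMs of tdLNs, Irak4, the first kinase after Myd88 (1.06 ± 0.15, adjusted p = 0.00672).

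Between SSMs and MSMs, 2 of the 15 kinases and ligases were higher in SSMs of both kinds of node, Ikbke (2.85 ± 0.34 in ndLNs, adjusted p = 0.00085) and Irak2 (1.35 ± 0.17 in ndLNs, adjusted p = 0.00118). Irak1 and Chuk were lower in SSMs of ndLNs. Of 8 transcription factors, Irf5 and Irf8 were lower in SSMs of both kinds of node. Both act downstream of the receptors, and Irf8 also acts in dendritic cell development. Their log2 differences in ndLNs were -2.27 ± 0.13 (adjusted p = 3.92e-05) and -1.32 ± 0.16 (adjusted p = 0.00085). Nfkbiz, Nfkb1 and Rela were higher in SSMs of ndLNs, and Nfkbiz also in tdLNs. No transcription factor of the list was called between nodes in SSMs by edgeR, with 5 at an unadjusted p under 0.05 and 4 called by DESeq2.

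Of 8 negative regulators, Irak3 (2.88 ± 0.26, adjusted p = 0.000266), Socs1 (2.13 ± 0.24, adjusted p = 0.000698) and Tnfaip3 (1.83 ± 0.16, adjusted p = 0.0002) were higher in SSMs than in MSMs of ndLNs. Socs1, an inhibitor of cytokine signaling, fell in SSMs of tdLNs from 229 and 235 CPM to 69.8 and 79.5 CPM (-1.63 ± 0.24, adjusted p = 0.00698). In tdLNs Irak3, Tnfaip3 and Nfkbia were the 3 called higher in SSMs.

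Of 13 classical target genes, Il1b and Cxcl2 rose in SSMs of tdLNs. Il1b, the cytokine interleukin-1 beta, was at 1980 and 1111 CPM in ndLNs and at 6856 and 5728 CPM in tdLNs, a rise of 2.06 ± 0.19 (adjusted p = 0.00192), and Cxcl2, a neutrophil chemokine, rose by 1.16 ± 0.17 (adjusted p = 0.00805). The other 11, among them Tnf (87.9 and 57.2 CPM against 79.6 and 84.2 CPM) and Il6 (28.4 and 23 CPM against 36.4 and 114 CPM), were not called by edgeR, and DESeq2 called 7 of the 13. Against MSMs of ndLNs, SSMs were lower in Il12b (-4.13 ± 0.49, adjusted p = 0.000884) and Il1b (-1.18 ± 0.18, adjusted p = 0.00298) and higher in Acod1 (4.16 ± 0.49, adjusted p = 0.000847) and Cxcl2 (1.21 ± 0.18, adjusted p = 0.00225). In tdLNs Acod1, Cxcl10 and Cxcl2 were higher and Il12b lower in SSMs.

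The genes whose profiles over the 8 libraries were most like those of the members were found among 9996 genes with a mean count over 100, by the root mean square difference of log2 CPM after each profile was centered. The closest to Tlr2 was Cd14 (0.14), followed by Rnf149 (0.16) and Etv5 (0.18). The closest to Tlr1 was Sirpa (0.14), then Pfkfb4 (0.18) and Lgmn (0.20), and the closest to Tlr8 was Csf1r (0.21), then Adora2b (0.22) and Ms4a6b (0.24). Tlr13 was nearest to Lamp2 (0.10), Ptpn6 (0.11) and Plin2 (0.12). Unc93b1 was nearest to Clec12a (0.12), Pld4 (0.12) and Csf2ra (0.15), the first of which is a myeloid lectin. Tlr6 was nearest to Pira2 (0.13), Gm14548 (0.17) and Cd300a (0.21). Tlr4 was nearest to Plaur (0.28), Cd14 (0.28) and Ralgds (0.29), and Tlr7 to Slc16a3 (0.31), Gbp7 (0.34) and Nxpe4 (0.34). The nearest to Tlr3 were farther off, with B230217C12Rik (0.37), Gm44135 (0.38) and Wdfy4 (0.42), the last of which is among the cDC1 markers. These are likenesses over 8 libraries of 4 groups and were not tested.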

How the data were processed

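The authors made libraries with SMART-Seq v4, sequenced each on 2 lanes and aligned reads to mm10 (GRCm38). The submitters' processing notes name STAR 2.5.3a, Trimmomatic 0.36 and bcl2fastq 2.20.0.422. The counting tool and strand setting are not given in the sources used here. The deposited values are raw counts per gene, in 55423 rows, of which 2 name added sequences and no gene (6 counts in all) and were left out. All columns were mapped to samples, and 55240 rows matched the GENCODE M21 annotation.

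The 16 samples were 8 libraries on lanes 3 and 4. Lanes differed by no more than sampling noise (chi-square per degree of freedom 0.955 to 1.02, against 29.3 to 53.1 between pools), so they were summed and counted once. Genes were kept if they had a total of at least 10 counts over the 16 samples and were detected in at least 2 of them. Counts were scaled by TMM and fitted with group and pool in edgeR 4.0.16 (R 4.3.3, quasi-likelihood test with the newer fit, legacy = FALSE, Benjamini-Hochberg adjustment over 21085 genes). Same-numbered libraries were taken as coming from the same mice, since the study states that every pool gave all 4 groups and its model has pool as a term. The numbers are those of the node labels, and 1 library name (SSMs of tdLNs, pool 1) lacks its number. The deviations of same-numbered libraries correlated by -0.186 to 0.15 across 10000 genes, so the values themselves do not show the pairing. The study's sample matrix counts 4 pools where the labels number 2. A pool joins 2 mice, so p-values measure the spread between such pools.

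TPM was computed from summed counts and exon lengths. Floors cover counting error only, and intervals of fitted differences use the t distribution of the edgeR fit. The fits were tested on simulated data. The members and lists were chosen with earlier results of these data known. Named genes are all members and, per list and direction, up to 3 called genes with the largest change, other called genes being named where a count of 5 or fewer needs them or for comparison, after their values were seen. Tnf, Il6 and Tlr5 were also named after their values were seen. Alternatives were no block, DESeq2 1.42.0, its size factors, other filters, lanes alone or as samples, only the groups compared, Holm adjustment (stated by the study), other cut-offs, and each library left out. The legacy fit was added after seeing the data. Python 3.11, numpy 2.4.6, pandas 2.3.3, scipy 1.17.1 and matplotlib 3.10.9 were used.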

Additional observations from a re-analysis of the deposited data

Results flagged for a closer look

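Unc93b1 and Tlr4 moved in opposite directions between nodes in the populations, higher in tdLNs in both pools of SSMs and lower in tdLNs in both pools of MSMs. The difference between these changes was 2.06 on the log2 scale for Unc93b1 and 2.16 for Tlr4. The interaction test of edgeR gave adjusted p values of 0.0138 and 0.0682, both over the threshold of 0.01, so neither difference was established. The log2 change between nodes was 1.58 and 1.84 in SSMs and -0.55 and -0.18 in MSMs for Unc93b1, pool 1 first. For Tlr4 it was 1.70 and 1.14 in SSMs and -0.32 and -1.12 in MSMs. The fall in MSMs was not called for either gene, with adjusted p values of edgeR's test of 0.368 for Unc93b1 and 0.436 for Tlr4. Of all genes tested, 24.1% were lower in tdLNs in both pools of MSMs. With 2 libraries per group, no test for a sample far from its group was made.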

How the results depend on the processing

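The number of members called depended on the test more than their direction did. For SSMs against MSMs in ndLNs, 4 members were called, 2 when only the groups compared were fitted, 1 with Holm adjustment and 2 to 3 without 1 library. In tdLNs 7 were called, 0 with Holm adjustment and 2 to 7 without 1 library. For tdLNs against ndLNs in SSMs, 5 were called, 9 with each lane as a sample (which counts each library again), 8 at an adjusted p under 0.05, 0 with only the groups compared, 0 with Holm adjustment and 0 to 4 without 1 library. In MSMs 0 were called, and 6 with each lane as a sample. For the interaction 0 were called, 6 by DESeq2, 1 from lane 3 alone, 1 from lane 4 alone, 8 with each lane as a sample and 1 at an adjusted p under 0.05. A fit without 1 library leaves a group with 1 library, assumed to vary like the others. Values that changed sign were never called ones. The log2 difference of Unc93b1 between SSMs and MSMs of tdLNs was 0.00 without the block for pool, 0.01 by DESeq2, 0.01 with its size factors and -0.19 to 0.19 without 1 library. Without 1 library, that of Tlr1 in ndLNs ran from -0.09 to 0.39, and those of Tlr9 from -1.08 to 2.85 in ndLNs and from -0.38 to 1.83 in tdLNs. The changes between nodes in MSMs ran from -0.27 to 0.40 for Tlr2, -0.53 to 0.17 for Tlr3, -0.95 to 0.59 for Tlr7 and -0.22 to 3.60 for Tlr9. The interaction ran from -0.14 to 0.81 for Tlr6 and -2.26 to 1.66 for Tlr9. Over all genes tested, 2545, 1833, 639, 5 and 8 were called in these 5 comparisons in the same order, and the ranges without 1 library were 1082 to 2022, 507 to 1867, 2 to 345, 0 to 3 and 0 to 0. DESeq2 called 3026 in tdLNs, 1973 between nodes in SSMs, 503 in MSMs and 706 for the interaction. Each lane as a sample gave 6253, 5415, 4736, 2413 and 2670, Holm adjustment 207, 108, 7, 0 and 1, and an adjusted p under 0.05 3886, 3023, 1832, 93 and 215. With only the groups compared, 954 were called in ndLNs, 0 between nodes in SSMs and 0 in MSMs. Without the block for pool, Tlr8 lost its calls in ndLNs and between nodes in SSMs, no other member's call changed, and 9 genes were called between nodes in MSMs. Other filters, lanes alone, size factors and the legacy fit (chosen after seeing the data) gave MSM node counts of up to 24 and interaction counts of 4 to 29. The cause of these changes was not tested. Tlr9, with a mean count of 27.4, lay under the count cut-off.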
